A study of Mus musculus with 20 samples.

Results

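Tumors of mice homozygous for a MYCN transgene were compared with ganglia of wild-type mice. The samples were found by their titles, 4 homozygous tumors and 4 wild-type ganglia, which are 8 of the 20 arrays of the series. The tumors came from mice labelled MYCN Tg homozygote on a mixed 129+Ter/SvJcl background, a line maintained by crosses to 129+Ter/SvJcl wild-type mice. The ganglia came from wild-type 129+Ter/SvJcl mice. Neither group carries the Mdk knockout used elsewhere in the series. The labels do not give the promoter of the transgene, the age of the mice, the kind of ganglion or whether tissue was pooled, so age and site cannot be told apart from genotype. RNA was measured on Affymetrix Mouse Genome 430 2.0 arrays after 2 rounds of amplification from 40 ng of total RNA, and the values below are probe set intensities.

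MYCN is a transcription factor that pairs with MAX and binds E-box sequences near genes of ribosome production, protein synthesis and nucleotide metabolism. Its gene is amplified in aggressive neuroblastoma, a childhood tumor of the sympathetic nervous system. Sympathetic neurons arise from the neural crest under factors such as PHOX2A, HAND2, GATA3 and ISL1, make noradrenaline and NPY, and lie in ganglia among satellite glia, Schwann cells, fibroblasts and vessels.

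The labelled tissue was checked first. Among the ganglia, Th, the first enzyme of noradrenaline synthesis, read 2165, 1472, 3193 and 2775, and Hand2, a sympathetic transcription factor, read 1843, 1308, 2563 and 2338. Pou4f1, a defining factor of sensory neurons, lay between 4.56 and 16.6 in the ganglia. Avil, another sensory neuron gene, read 343, 187, 204 and 205 in the ganglia. The 11 genes of the sensory list summed to 450 to 771 in the tumors, against 1226 to 1847 in the ganglia. Most of the ganglion sum came from Ret (log2 -3.25, the lowest of the list), described below as a receptor of sympathetic neurons. The ganglia thus carried sympathetic markers, with Pou4f1 dim but Avil detected. Mycn itself read 153, 134, 170 and 120 in the tumors, against 323, 236, 304 and 413 in the ganglia, by its brightest probe set (log2 -1.05, adjusted p = 0.0044). Its other probe sets were at log2 1.25 and -0.63, so they disagreed in direction, and none is annotated to the transgene in the tables used, so these values do not check its expression.

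Wild-type ganglia 1 and 2 stood apart from 3 and 4. The correlation of log2 intensities over the tested genes was 0.97 between ganglia 1 and 2 and 0.974 between 3 and 4, but 0.879 to 0.91 across these pairs. Tumors correlated at 0.976 to 0.991 with each other and at 0.802 to 0.856 with the ganglia. The summed intensity of 20 skeletal muscle genes was 171, 2468, 198 and 257 in tumors 1 to 4, against 12360, 9352, 626 and 563 in ganglia 1 to 4. The sum of 15 genes of liver and plasma proteins was 128 to 230 in the tumors, against 5728, 1939, 301 and 224 in the ganglia. Muscle and plasma protein genes were therefore high in ganglia 1 and 2, and the defining muscle marker Acta1 was at 16 and 7.1 in ganglia 3 and 4. The 15 adipocyte genes summed to 3266 to 7281 in the tumors, against 13305, 30718, 4927 and 9183 in the ganglia. Sex-linked genes varied among samples of both groups. Xist, expressed from the inactive X chromosome, read 18, 2334, 2366 and 11.9 in the tumors, against 2411, 2481, 44 and 30.7 in the ganglia, and the Y-linked Eif2s3y read 433, 3.76, 0.392 and 364 in the tumors, against 0.152, 4.3, 519 and 775 in the ganglia. These genes thus set ganglia 1 and 2 apart from 3 and 4, the same pairs as above, and tumors 1 and 4 apart from 2 and 3. Comparisons with each pair of ganglia therefore cannot be told apart from this split, and its part in the results was not tested. Results below that were not past the threshold against one pair of ganglia are marked. For genes that did not pass against all 4 ganglia, results against 1 pair are given only in part.

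Control probe sets compare the 3' and 5' ends of beta-actin transcripts. Their 3' over 5' intensity was 2.47, 2.81, 2.44 and 2.48 in the tumors, against 4.36, 7.14, 6.88 and 9.14 in the ganglia. The mean ratio was 2.55 ± 0.174 in tumors and 6.88 ± 1.96 in ganglia (SD, n = 4 each, exact permutation test, two-sided p = 0.0286, the smallest that 4 against 4 allows). The ratio of the GAPDH control was 3.07 ± 0.379 in tumors and 3.42 ± 0.682 in ganglia (SD, n = 4 each, exact permutation p = 0.457). RNA of the ganglia was thus read less well toward the 5' end of beta-actin, and the part of this in the results was not tested.

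**Figure D1:**
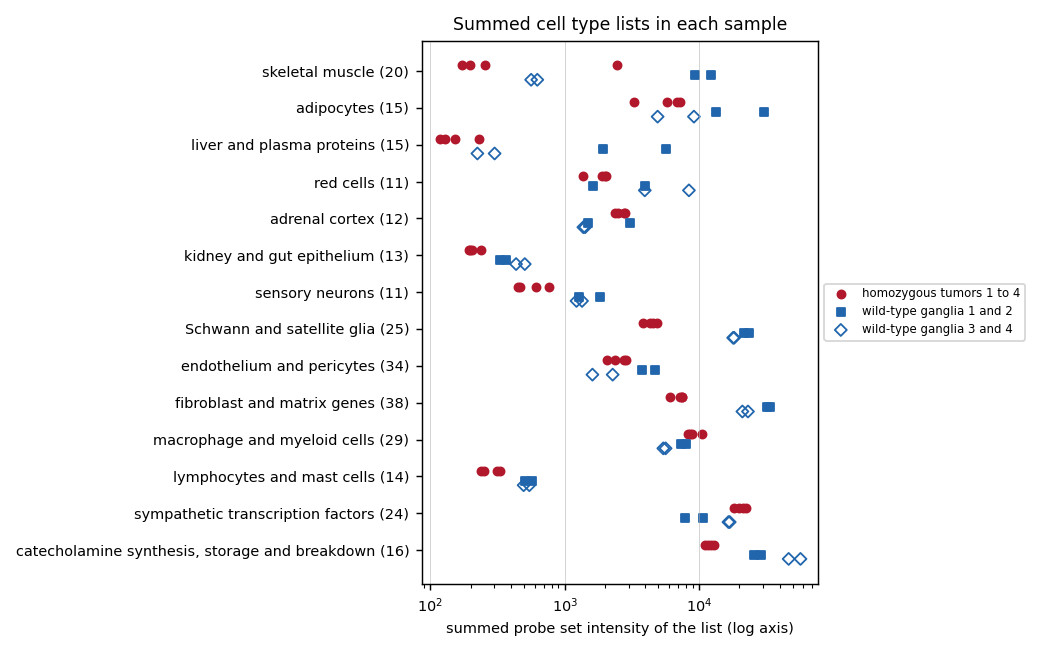
Summed probe set intensity (log axis) of 14 gene lists in each sample, with filled circles for the 4 homozygous tumors above squares for wild-type ganglia 1 and 2 and open diamonds for ganglia 3 and 4. Schwann and satellite glia summed to 3867 to 4885 in the tumors and 17991 to 23729 in the ganglia, while skeletal muscle split the ganglia into 2 pairs.

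Of 15139 genes tested, 7560 changed between tumors and ganglia (49.9%), 3515 of them higher in the tumors (23.2%) and 4045 lower (26.7%). Changed means an adjusted p under 0.05 in limma, with fold changes on the log2(intensity + 16) scale, which understates changes of dim genes. The median over all tested genes was -0.12. More than 4-fold changes numbered 933, with 428 higher and 505 lower, and 226 genes moved more than 8-fold, with 115 higher and 111 lower. The values of tumors and ganglia did not overlap for 6631 genes (43.8%). With a test against a 2-fold change, 671 genes passed upward and 689 downward. The counts of list members below are read against these shares of all genes. In whole tissue, fewer cells of a type and less RNA per cell cannot be told apart.

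**Figure D2:**
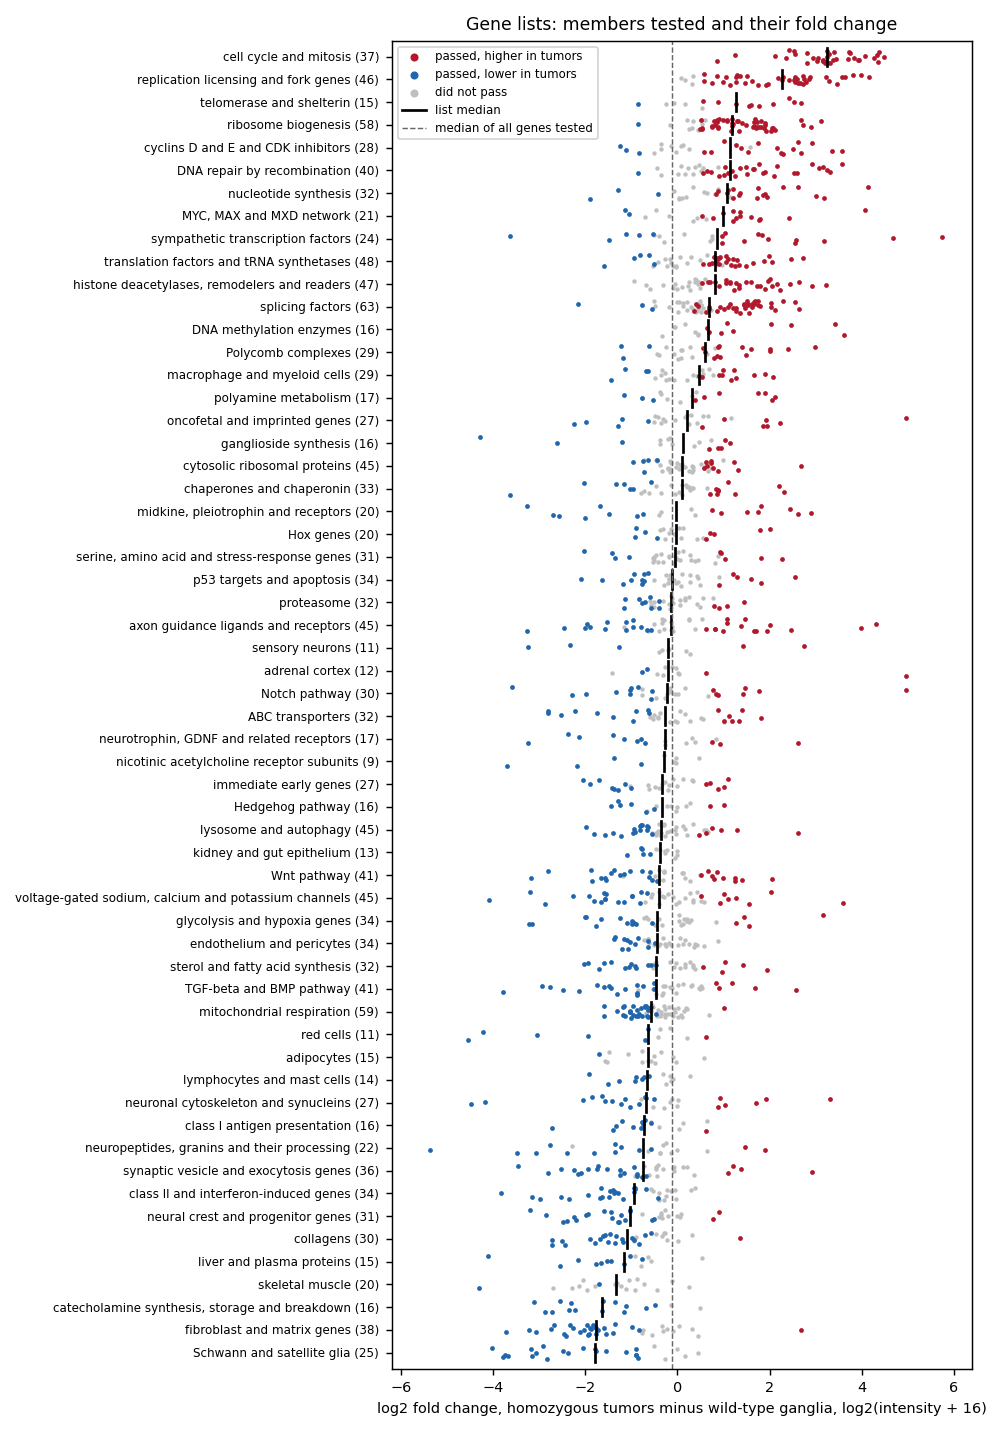
Log2 fold change, homozygous tumors minus wild-type ganglia, of every tested member of 58 gene lists, ordered by list median, with the number of members tested in parentheses. Red and blue points passed upward and downward, grey points did not pass, black bars mark list medians and the dashed line marks the median of all tested genes (-0.12). Cell cycle lists sit at the top, with a median of 3.24, and glia, matrix and catecholamine lists at the bottom, with medians of -1.78, -1.76 and -1.63.

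Transcription factors of the sympathetic lineage were in part kept, in part raised and in part lowered. Of 24 tested, 12 rose and 5 fell, with a median of 0.86. Insm1, a zinc finger factor of neuroendocrine precursors, read 1504, 1317, 821 and 867 in tumors, against 4.28, 5.26, 9.73 and 0.889 in ganglia (log2 5.73, SE 0.20, adjusted p = 2.7e-12). Meis2, a homeodomain cofactor of neuroblasts, read 1625, 1540, 1665 and 1007 in tumors, against 39.7, 53.5, 44 and 28.7 in ganglia (log2 4.67). Sox11, a factor of immature neurons, read 1717, 1843, 1442 and 1455 in tumors, against 206, 136, 161 and 152 in ganglia (log2 3.18). These 3 genes were far higher in every tumor than in any ganglion. Gata3 rose less, with 175, 174, 133 and 106 in tumors, against 75.2, 42.6, 84.6 and 53.8 in ganglia (log2 1.03, adjusted p = 0.0069).

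Other lineage factors did not pass in the comparison with all 4 ganglia. Hand2 had a log2 difference of -0.29 (SE 0.18), Isl1 of 0.14 (SE 0.21) and Gata2 of -0.50 (SE 0.34), and their tumor and ganglion values overlapped. Hand2 was at 0.04 against ganglia 1 and 2 but passed as lower against 3 and 4 alone (log2 -0.61, adjusted p = 0.0051). Isl1 was at 1.55 by a second probe set. Phox2a had 552, 717, 361 and 363 in tumors, against 625, 388, 162 and 152 in ganglia (log2 0.74, adjusted p = 0.11). Its log2 difference was -0.04 against ganglia 1 and 2 and 1.52 against 3 and 4. Tbx20, a T-box factor, went the other way, with 84.4, 64.1, 57.6 and 86.1 in tumors, against 319, 170, 5051 and 4509 in ganglia (log2 -3.63, adjusted p = 0.0011). It was low in all tumors and far higher in ganglia 3 and 4 than in 1 and 2. Tfap2a and Ebf1 fell by 1.11 and 1.48 on the log2 scale.

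The enzymes and transporters of noradrenaline fell together. In the catecholamine list 14 of 16 fell and 0 rose, with a median of -1.63. Th read 260, 273, 384 and 305 in tumors, against 2165, 1472, 3193 and 2775 in ganglia (log2 -2.87, SE 0.48, adjusted p = 7.8e-05). Dbh, which turns dopamine into noradrenaline, read 453, 507, 318 and 352 in tumors, against 2075, 1249, 2885 and 2621 in ganglia (log2 -2.35, SE 0.31). Slc6a2, the noradrenaline reuptake transporter, had 729, 1338, 788 and 831 in tumors, against 4146, 4179, 9832 and 7779 in ganglia (log2 -2.73). Neither enzyme nor transporter overlapped between the groups, though each stayed clearly detected in the tumors. Maob, which breaks down amines, had 194, 238, 117 and 116 in tumors, against 940, 904, 2264 and 2603 in ganglia (log2 -3.11). The vesicle transporter Slc18a2 fell by 1.62 against all ganglia, but its log2 difference of -0.70 against ganglia 1 and 2 alone did not pass (adjusted p = 0.093). Ddc, the decarboxylase between Th and Dbh, fell by only 0.68, did not pass against ganglia 1 and 2 (log2 -0.22, adjusted p = 0.28), and a second probe set of it was at 1.25. Pnmt, which makes adrenaline, did not pass (log2 0.49, adjusted p = 0.085).

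The promoter of Th is shown because it holds the cAMP response element, a sequence known for cAMP-driven transcription of this gene. The RefSeq window of 250 bases before to 50 after the start (GRCm38.p6, chr7:142899946-142900245, minus strand) is printed with TGACGTCA in capitals, which lies 45 bases before the start.
Th: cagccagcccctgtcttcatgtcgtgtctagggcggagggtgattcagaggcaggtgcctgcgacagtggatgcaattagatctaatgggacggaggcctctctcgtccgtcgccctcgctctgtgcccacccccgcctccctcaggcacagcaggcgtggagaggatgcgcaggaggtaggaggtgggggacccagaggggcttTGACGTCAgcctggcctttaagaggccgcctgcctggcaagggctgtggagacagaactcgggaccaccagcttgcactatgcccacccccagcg
TGACGTCA, its own reverse complement, was in 2 of the 11 catecholamine genes with a window and in 5 of the 18 peptide and granin genes with one, Cartpt, Chgb, Pcsk1, Scg2 and Sst, against 3.19% of the 12123 tested genes with a window. A match is a description of the letters in the window.

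Of 22 tested genes of neuropeptides, granins and their processing, 11 fell, 2 rose and 9 did not pass (median -0.74). Npy, the main co-transmitter of these neurons, read 78.8, 133, 42.7 and 61.1 in tumors, against 3908, 3644, 4214 and 3059 in ganglia (log2 -5.37, SE 0.44, adjusted p = 2.2e-08). Gal, the peptide galanin, had 17.5, 26.8, 15.5 and 17 in tumors, against 356, 228, 287 and 253 in ganglia (log2 -3.07). Pcsk1, a prohormone convertase, had 0.756, 6.15, 13.1 and 16.7 in tumors, against 177, 163, 366 and 407 in ganglia (log2 -3.49). All 3 were many-fold lower in each tumor. On the log2(intensity + 16) scale, Npy fell the most of the named genes. Chga, the chromogranin used as a neuroendocrine tumor marker, rose, with 474, 480, 302 and 223 in tumors, against 129, 97.8, 110 and 140 in ganglia (log2 1.46, SE 0.30, adjusted p = 0.00059). Scg2, another granin, fell by 2.40, and Chgb did not pass (log2 -0.63, adjusted p = 0.12). Granins thus moved in different directions in the same samples.

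Growth factor receptors of sympathetic neurons split likewise. Of 17 tested, 3 rose and 8 fell (median -0.28). Alk, a receptor tyrosine kinase mutated in some neuroblastomas, read 304, 289, 225 and 203 in tumors, against 55.7, 24.5, 25.9 and 14.1 in ganglia (log2 2.62, SE 0.23, adjusted p = 5.3e-08). Ret, the signalling receptor of the GDNF family, read 112, 122, 69.1 and 70.9 in tumors, against 1322, 964, 958 and 827 in ganglia (log2 -3.25, SE 0.38, adjusted p = 1.3e-06). Alk and Ret thus separated the groups completely, in opposite directions. Gfra2, the neurturin co-receptor, fell by 2.13, Ngfr, the p75 neurotrophin receptor, by 2.37 and Ntrk2, the BDNF receptor, by 1.40. Ngfr is also made by glia, whose summed markers were 3867 to 4885 in tumors and 17991 to 23729 in ganglia, and their part in its value was not tested. Gfra3, the artemin co-receptor, did not pass (log2 0.84, adjusted p = 0.22), nor did Ntrk3 (log2 -0.26). Kit, the stem cell factor receptor, rose by 0.93, and Igf1r by 0.75, the last with an adjusted p of 0.056 and 0.072 against the separate pairs.

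Cytoskeletal genes of neurons moved both ways, with 6 of 27 higher and 14 lower (median -0.68). Dcx, a microtubule protein of migrating neuroblasts, read 1906, 2006, 1886 and 1760 in tumors, against 282, 212, 141 and 116 in ganglia (log2 3.30, SE 0.27). Prph, the intermediate filament peripherin of peripheral neurons, read 223, 179, 38.3 and 65.1 in tumors, against 3099, 2640, 1440 and 1757 in ganglia (log2 -4.17, SE 0.50). Sncg, gamma-synuclein, read 92.7, 109, 63.8 and 67.7 in tumors, against 2547, 2454, 2192 and 1530 in ganglia (log2 -4.47, SE 0.33). Neurofilaments did not follow peripherin. Nefm rose, with 2589, 1927, 3087 and 2597 in tumors, against 643, 358, 776 and 996 in ganglia (log2 1.93), Ina, alpha-internexin, rose by 1.04, and Nefl (log2 -0.17) and Nefh (log2 0.00, adjusted p = 0.99) did not pass. Crmp1, a growth cone protein, rose by 1.71, whereas its relative Dpysl3 fell by 2.06. Nes and Vim, filaments of progenitors and of glia and fibroblasts, fell by 0.51 and 1.85, Nes not against ganglia 3 and 4 alone (adjusted p = 0.076).

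Genes of the synaptic vesicle fell more often than they rose, with 18 of 36 lower and 4 higher (median -0.75). Syt1, the calcium sensor of release, read 337, 427, 350 and 377 in tumors, against 2969, 2463, 2856 and 2500 in ganglia (log2 -2.80, adjusted p = 1.3e-09). Syn2, a vesicle tether, fell by 3.46 and Cplx2, a complexin, by 2.52. Unc13b, a priming factor, rose by 1.20. Pclo was at 2.92 by the probe set used but at -0.79 and -1.41 by its others, so its direction depended on the probe set. Of 45 voltage-gated channel genes and their partners, 8 rose and 18 fell (median -0.41). Kcnip1 and Kcnip4, 2 proteins that bind the same A-type potassium channels, moved apart. Kcnip1 read 272, 280, 234 and 253 in tumors, against 5.8, 13.9, 2.88 and 6.36 in ganglia (log2 3.59, SE 0.25). Kcnip4 read 5.2, 12.9, 5.24 and 5.99 in tumors, against 288, 290, 509 and 482 in ganglia (log2 -4.09, SE 0.19). Each was near background in one tissue and clearly detected in the other. Kcnq3, a subunit of the M-current channel of sympathetic neurons, fell by 3.20 and the L-type calcium channel gene Cacna1d rose by 1.55. The other Cacna1d probe set was at -0.05.

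Nicotinic receptor subunits, through which sympathetic neurons receive preganglionic input, fell in 4 of 9 tested genes and rose in 0 (median -0.30). Chrnb4 read 25.6, 29.6, 9.74 and 20.7 in tumors, against 638, 427, 400 and 412 in ganglia (log2 -3.70, SE 0.24, adjusted p = 1.4e-09). Chrna5 fell by 2.19 and Chrna3, the subunit of the main ganglionic receptor, by 1.37. Chrna7, which forms a homomeric receptor, did not pass, with 851, 1008, 696 and 687 in tumors, against 768, 855, 1247 and 1182 in ganglia (log2 -0.30, adjusted p = 0.46). The α3β4α5 receptor genes, which lie in 1 gene cluster, thus fell as a group.

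Axon guidance genes moved both ways, with 15 of 45 higher and 14 lower (median -0.15), against 23.2% and 26.7% of all genes. The ligands Slit2 and Slit1 stood out. Slit2 read 1990, 2311, 2474 and 2290 in tumors, against 163, 87.1, 68 and 96.9 in ganglia (log2 4.31, SE 0.26, adjusted p = 4.8e-10). Slit1 read 238, 256, 320 and 302 in tumors, against 5.98, 1.28, 1.76 and 1.77 in ganglia (log2 3.98, SE 0.24). Both Slit genes were high in all tumors. The receptor Epha7 rose by 2.46, with other probe sets at 0.55, 1.43 and -0.01. The semaphorin receptor Nrp1 read 215, 280, 138 and 157 in tumors, against 1226, 1583, 2952 and 2617 in ganglia (log2 -3.26), and the receptors Unc5b and Plxnc1 fell by 2.47 and 2.01.

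**Figure D3:**
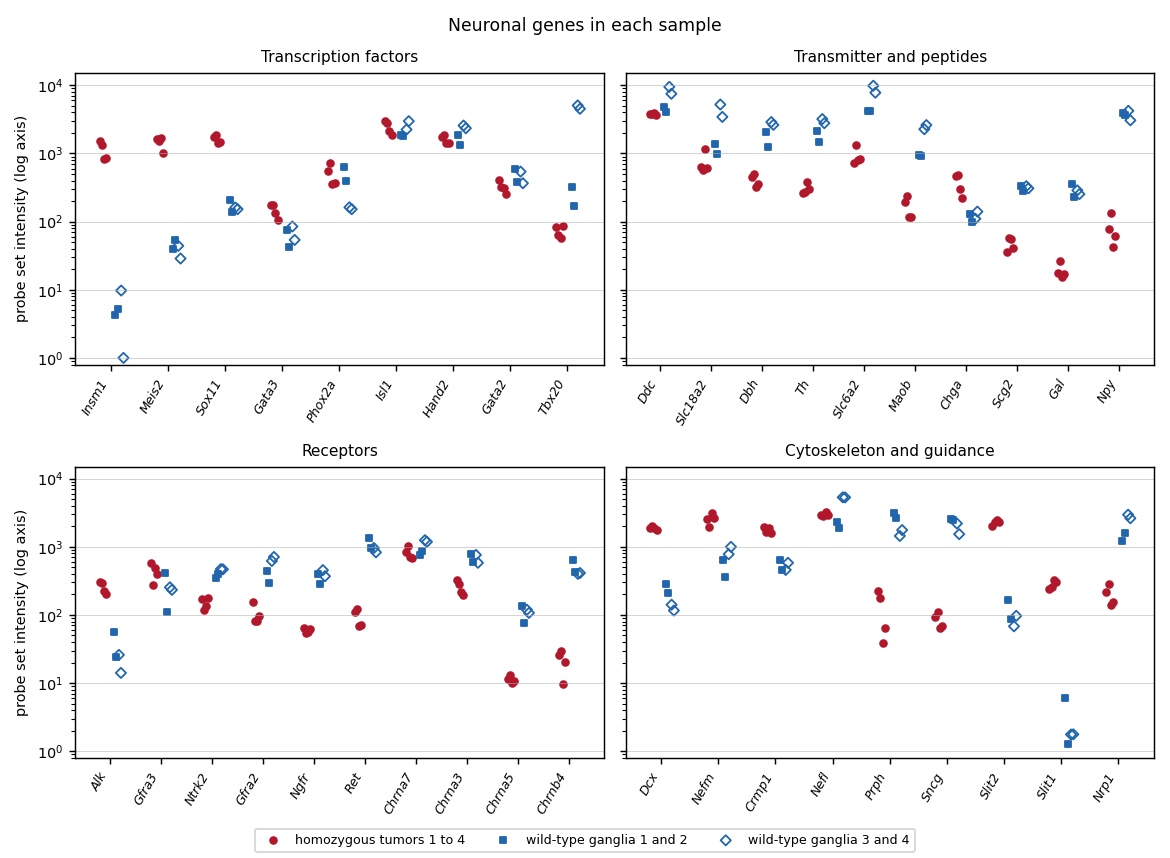
Probe set intensity (log axis) of neuronal genes in each sample, with circles for homozygous tumors 1 to 4, squares for wild-type ganglia 1 and 2 and open diamonds for ganglia 3 and 4, and values under 1 drawn at 1. Insm1, Meis2, Sox11, Alk, Dcx and both Slit genes are higher in every tumor, Npy, Ret, Chrnb4, Prph and Sncg are lower in every tumor, and Isl1, Hand2 and Nefl overlap.

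Markers of sensory neurons gave no uniform picture, with 2 of 11 higher and 3 lower (median -0.20), against 23.2% and 26.7% of all genes. Prrxl1 and Tlx3, homeodomain factors known from sensory and dorsal horn neurons, rose by 2.74 and 1.42. Prrxl1 read 343, 465, 229 and 184 in tumors, against 40.3, 18.9, 36.1 and 26.1 in ganglia. Avil fell by 2.34 and the sodium channel gene Scn11a by 1.26. Ret, also on this list and described above, was the lowest at log2 -3.25. Pou4f1 did not pass and was under 17 in all 8 samples.

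Genes of Schwann and satellite glia were lower in the tumors, with 20 of 25 fallen and 0 risen (median -1.78). Fabp7, a fatty acid carrier of satellite glia, read 415, 345, 300 and 295 in tumors, against 4070, 4714, 5102 and 5031 in ganglia (log2 -3.75). Sox10, the defining glial factor, read 33.2, 31.7, 8.4 and 34.6 in tumors, against 304, 160, 200 and 220 in ganglia (log2 -2.49, SE 0.30, adjusted p = 2.4e-06). Art3, an ADP-ribosyltransferase, read 46.3, 93.8, 43.4 and 58.1 in tumors, against 1134, 1329, 711 and 933 in ganglia (log2 -3.78). The other Art3 probe set was at -0.33. Glial genes were low but not absent in all tumors. Mbp, a myelin protein, read 79, 222, 38 and 63.4 in tumors, against 3111, 1783, 706 and 621 in ganglia (log2 -3.68), with 1 of its 7 other probe sets above 0, at 1.53. Of 31 neural crest and progenitor genes, 19 fell and 2 rose (median -1.04), among them Ednrb, the endothelin receptor of crest cells, which fell by 2.86. Sox10 belongs to both lists. Prom1, the stem cell marker CD133, fell by 3.19, with 99.9, 108, 83.5 and 81.1 in tumors, against 974, 782, 991 and 1204 in ganglia.

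Most connective tissue genes fell, and 1 rose in each list. Of 38 fibroblast and matrix genes 27 fell and 1 rose (median -1.76), and of 30 collagens 20 fell and 1 rose (median -1.09). Lum, the matrix proteoglycan lumican, read 190, 262, 174 and 304 in tumors, against 2555, 3113, 1791 and 1799 in ganglia (log2 -3.22). Thy1, on fibroblasts and on neurons, fell by 3.72, Mmp2, a matrix protease, by 3.06, and Pdgfra fell by 2.33. Fbln1, fibulin 1, went against its list, with 323, 312, 307 and 294 in tumors, against 37.3, 30.9, 38.2 and 30.8 in ganglia (log2 2.69, SE 0.16, adjusted p = 5e-10). Its other probe sets were at 2.06 and -0.30. Col9a1 rose by 1.36, but its other probe set was at -0.33. Of 34 endothelial and pericyte genes, 12 fell and 0 rose (median -0.45). This count was 18 lower against ganglia 1 and 2 but 6 higher and 6 lower against ganglia 3 and 4, so it rested on which ganglia were used. Cdh5, the endothelial cadherin, read 25, 24.1, 11 and 12.4 in tumors, against 81.2, 124, 66.1 and 32.4 in ganglia (log2 -1.35), while Kdr, the VEGF receptor, did not pass (log2 -0.50, adjusted p = 0.1).

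Macrophage genes were the immune list with more genes up than down, 11 of 29 higher and 4 lower (median 0.47), with 8 higher and 6 lower against ganglia 1 and 2 and 13 higher and 4 lower against ganglia 3 and 4. Lyz2, lysozyme of myeloid cells, read 1064, 1432, 912 and 805 in tumors, against 244, 297, 179 and 221 in ganglia (log2 2.08, SE 0.25, adjusted p = 2e-06). Cd68, a lysosomal protein of macrophages, rose by 1.91. Adgre1, the F4/80 antigen, fell, with 106, 97.3, 94.8 and 135 in tumors, against 471, 561, 200 and 198 in ganglia (log2 -1.45), and Mrc1, the mannose receptor of resident macrophages, fell by 1.13. Csf1r, the receptor on which macrophages depend, did not pass (log2 -0.35, adjusted p = 0.44). It was lower against ganglia 1 and 2 alone (log2 -0.97, adjusted p = 0.031). Myeloid markers thus changed in both directions. Of 14 lymphocyte and mast cell genes 8 fell and 0 rose (median -0.67). The mast cell protease Cpa3 read 8.42, 1.78, 1.05 and 3.1 in tumors, against 32.5, 68.5, 58.9 and 77 in ganglia (log2 -1.91), and Ms4a1, the B cell marker CD20, fell by 1.27. Ptprc, CD45 of all leukocytes, did not pass (log2 -0.09).

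Antigen presentation and interferon-induced genes fell more often than they rose. Of 16 class I genes 10 fell and 1 rose (median -0.72), and of 34 class II and interferon-induced genes 22 fell and 0 rose (median -0.95). B2m, the light chain of class I proteins, read 335, 348, 232 and 320 in tumors, against 1835, 2437, 2033 and 2222 in ganglia (log2 -2.73, SE 0.21, adjusted p = 1.2e-08). Psmb8, Psmb10 and Tapbp, of the immunoproteasome and the loading complex, fell by 0.96, 1.40 and 1.34. The heavy chain gene H2-K1 fell by 0.80 but by a log2 value of only 0.29 against ganglia 3 and 4 (adjusted p = 0.43). H2-D1 did not pass (log2 0.65), though it was higher against ganglia 3 and 4 alone (log2 1.33, adjusted p = 0.00029). The heavy chain probe sets can match several transcripts. B2m was low in all 4 tumors against either pair of ganglia.

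Rsad2, the interferon-induced viperin, read 55.5, 115, 102 and 106 in tumors, against 651, 1290, 1522 and 4314 in ganglia (log2 -3.84, SE 0.42). Ifi35 read 91.6, 124, 77.9 and 93 in tumors, against 1269, 1123, 834 and 778 in ganglia (log2 -3.16), and Xaf1, an interferon-induced regulator of apoptosis, fell by 2.98. Each was at least several-fold lower in every tumor. Ifit1, which binds viral RNA, fell by 2.35. Of the class II genes H2-Aa fell by 1.94, whereas H2-Ab1 (log2 -0.06) did not pass. Nor did H2-Eb1 (log2 -0.58), though it was lower against ganglia 1 and 2 alone (log2 -1.11, adjusted p = 0.005). Many of these genes share an interferon-stimulated response element. The windows of 2 genes, chosen after values were seen as those with the smallest p among list members that hold the motif, are printed with GAAANNGAAA or its reverse complement TTTCNNTTTC in capitals. The windows are RefSeq promoters of GRCm38.p6, Ifit1 at chr19:34640639-34640938 on the plus strand with 2 matches, and Rsad2 at chr12:26456403-26456702 on the minus strand with 1 match.
Ifit1: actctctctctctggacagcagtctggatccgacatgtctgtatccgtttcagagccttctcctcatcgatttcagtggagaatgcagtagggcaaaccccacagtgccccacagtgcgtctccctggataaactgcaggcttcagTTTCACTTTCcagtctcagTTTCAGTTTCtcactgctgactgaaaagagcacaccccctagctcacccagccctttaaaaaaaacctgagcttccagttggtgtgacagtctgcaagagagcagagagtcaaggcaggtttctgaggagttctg
Rsad2: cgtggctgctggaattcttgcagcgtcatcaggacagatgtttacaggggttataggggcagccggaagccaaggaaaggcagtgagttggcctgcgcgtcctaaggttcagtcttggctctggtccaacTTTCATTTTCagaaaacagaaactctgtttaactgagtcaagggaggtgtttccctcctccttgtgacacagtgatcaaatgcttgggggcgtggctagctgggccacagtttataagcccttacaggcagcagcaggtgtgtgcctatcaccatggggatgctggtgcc
The motif was in 12 of 27 class II and interferon-induced genes with a window (44.4%) and in 3 of 13 class I genes, B2m, Erap1 and Psme1, against 3.55% of all tested genes with a window.

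Among the lists of other tissues, those of muscle, liver and fat depended on the pair of ganglia. Red cell genes fell in 6 of 11 and rose in 1 (median -0.64). Among those that fell was Alas2, an enzyme of heme synthesis, with 32.4, 29, 18 and 2.12 in tumors, against 231, 713, 554 and 1569 in ganglia. Muscle genes fell in 2 of 20 and rose in 0, but in 14 against ganglia 1 and 2 and in 1 against 3 and 4. Liver and plasma protein genes fell in 10 of 15 and rose in 0, but 14 fell against ganglia 1 and 2 and 2 against 3 and 4 (medians -2.06 and -0.15). Among them Alb was at 11.6, 21.6, 7.97 and 10.7 in tumors, against 1588, 393, 25.4 and 12.3 in ganglia, and not past the threshold against ganglia 3 and 4 (adjusted p = 0.57). Adipocyte genes fell in 1 of 15 and rose in 0, with 11 lower and 0 higher against ganglia 1 and 2 and 1 lower and 1 higher against 3 and 4. Epithelial genes fell in 5 of 13 and rose in 0, with 2 and 5 lower against the separate pairs, and adrenal cortex genes rose in 2 of 12 and fell in 2. The defining cortex genes Nr5a1, Cyp11a1 and Cyp11b1 were under 18 in all 8 samples. Dlk1, on the cortex list as well as the imprinted and Notch lists, is described with those.

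The MYC network was examined beyond the transgene. Of 21 genes, 13 rose and 2 fell (median 0.98). Aurka, a mitotic kinase that stabilises MYCN protein, read 430, 392, 740 and 665 in tumors, against 23.1, 27.6, 1.49 and 24.5 in ganglia (log2 4.06, SE 0.27). Ruvbl2, an ATPase that binds MYC, rose by 2.42 and the MAX-binding repressors Mxd3 and Mnt by 1.60 and 0.98. Myc itself was dim and fell, with 13.8, 5.37, 5.98 and 5.45 in tumors, against 38.1, 55, 42.7 and 15.7 in ganglia (log2 -1.14, adjusted p = 0.0063), though not against ganglia 3 and 4 alone (adjusted p = 0.055). Mycl rose by 1.79 by the probe set used, with 0.06 and -0.07 by the others. The partner gene Max rose by 0.54, with an adjusted p of 0.096 and 0.052 against the separate pairs.

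Cell division genes were higher throughout: 37 of 37 mitotic genes rose (median 3.24), as did 42 of 46 replication genes with 0 fallen (median 2.27). Fen1, the flap nuclease of lagging strand synthesis, did not follow its list, with 2203, 2541, 2060 and 1896 in tumors, against 5417, 6624, 560 and 672 in ganglia (log2 0.16, adjusted p = 0.84). A second Fen1 probe set was at 2.46. Recombination repair genes rose in 27 of 40 and fell in 1 (median 1.14), with Rad54l at log2 3.58, and Nbn, a member of the MRN complex, fell by 0.86. Of 28 cyclin and CDK inhibitor genes 16 rose and 3 fell (median 1.14). The D cyclins parted: Ccnd1 rose by 1.74, with 1404, 883, 1236 and 1201 in tumors, against 414, 241, 351 and 366 in ganglia, Ccnd2 fell by 1.12 but not against ganglia 3 and 4 alone (adjusted p = 0.093), and Ccnd3 did not pass (log2 -0.03). Their kinases did too, with Cdk4 up by 2.91 and Cdk6 down by 1.24. The inhibitors Cdkn1a, Cdkn1b and Cdkn2a did not pass, Cdkn2a at 4.67 to 14.1 in tumors and 3.71 to 21.2 in ganglia. Cdkn1b was lower against ganglia 3 and 4 alone (log2 -0.83, adjusted p = 0.0024). Among 34 genes of the p53 response and apoptosis 6 rose and 10 fell (median -0.12), against 23.2% higher and 26.7% lower among all genes. Hrk, a BH3-only killer protein, was up by 2.56, Mdm2, the p53 ligase, up by 1.82 and Bcl2 down by 1.18. Of 4 other Bcl2 probe sets 1 was above 0, at 0.09.

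Genes that build ribosomes rose together. Of 58 tested, 48 rose and 1 fell, with a median of 1.18, against 23.2% higher among all genes. Fbl, the methylase fibrillarin of the nucleolus, read 1042, 1077, 1197 and 1172 in tumors, against 189, 218, 52.2 and 73.5 in ganglia (log2 3.12, SE 0.35, adjusted p = 9.2e-07). Ncl, nucleolin, read 2105, 1878, 2016 and 2005 in tumors, against 637, 652, 135 and 67.5 in ganglia (log2 2.89). Rrp1b, a nucleolar processing factor, read 320, 349, 305 and 360 in tumors, against 41, 32.7, 31.7 and 42.2 in ganglia (log2 2.73). The tumors were alike for these genes, while Fbl and Ncl were lower in ganglia 3 and 4 than in 1 and 2. Npm1, nucleophosmin, rose by 0.74 but not against ganglia 1 and 2 alone (log2 0.27, adjusted p = 0.2). Utp20 and Mybbp1a, nucleolar proteins, rose by 1.67 and 1.66.

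Both genes were chosen after values were seen, and their promoters are shown as the list members with the smallest p whose window holds the canonical E-box CACGTG, which reads the same on both strands and is in capitals. The RefSeq windows of GRCm38.p6 lie at chr10:88826765-88827064 on the minus strand for Utp20 and at chr11:72441077-72441376 on the plus strand for Mybbp1a, and the E-box starts at base 38 and at base 41 after the start.
Utp20: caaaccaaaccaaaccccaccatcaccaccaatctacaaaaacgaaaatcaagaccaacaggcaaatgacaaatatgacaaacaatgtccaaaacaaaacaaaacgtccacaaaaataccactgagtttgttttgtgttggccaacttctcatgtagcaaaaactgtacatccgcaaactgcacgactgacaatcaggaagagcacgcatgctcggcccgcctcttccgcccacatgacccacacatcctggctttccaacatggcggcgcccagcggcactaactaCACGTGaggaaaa
Mybbp1a: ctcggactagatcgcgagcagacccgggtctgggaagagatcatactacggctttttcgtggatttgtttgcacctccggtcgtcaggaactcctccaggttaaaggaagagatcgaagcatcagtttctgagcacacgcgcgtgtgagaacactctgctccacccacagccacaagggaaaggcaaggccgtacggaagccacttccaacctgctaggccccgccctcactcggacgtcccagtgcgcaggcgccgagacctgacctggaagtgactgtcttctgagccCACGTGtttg
CACGTG was in 12 of 51 ribosome biogenesis genes with a window (23.5%), in 12 of 34 genes of translation factors and tRNA synthetases (35.3%), in 5 of 30 of nucleotide synthesis (16.7%) and in 1 of 11 of polyamine metabolism, against 10.9% of all tested genes with a window. Binding was not measured.

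Genes of the ribosome itself moved less than those that build it. Of 45 ribosomal protein genes 10 rose (22.2%) and 5 fell (11.1%), against 23.2% and 26.7% of all genes (list median 0.10). The count was 3 higher and 8 lower against ganglia 1 and 2 and 21 higher and 5 lower against ganglia 3 and 4. Rpl12 rose by 2.68 and Rps29 fell by 0.74, though not against ganglia 1 and 2 alone (adjusted p = 0.065). Several of these probe sets can match related transcripts. Translation factors and tRNA synthetases rose in 26 of 48 and fell in 5 (median 0.81), with 18 higher and 6 lower against ganglia 1 and 2 and 31 higher and 7 lower against ganglia 3 and 4 (medians 0.43 and 1.14). Eef2, the elongation factor that moves the ribosome, read 2493, 2451, 3180 and 2993 in tumors, against 1141, 1110, 295 and 146 in ganglia (log2 2.46), although its other probe set was at -0.08. Vars and Kars, which charge tRNAs, rose by 2.72 and 2.06. Eif5a2, an elongation factor isoform, fell by 1.60.

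Nucleotide synthesis rose in 18 of 32 genes and fell in 3 (median 1.08). Rrm2, of the reductase that makes deoxynucleotides, read 2356, 2632, 2403 and 2322 in tumors, against 90.1, 236, 98.3 and 109 in ganglia (log2 4.13). Cad, the first enzyme complex of pyrimidine synthesis, read 143, 160, 189 and 200 in tumors, against 49.5, 60, 3.5 and 6.62 in ganglia (log2 2.28), with other probe sets at -0.23 and 1.27. Hprt, which salvages purines, fell, with 925, 956, 882 and 848 in tumors, against 1663, 1867, 2771 and 2893 in ganglia (log2 -1.29, SE 0.16). By the probe sets used, Hprt thus changed in the opposite direction to Rrm2 and Cad. Among 17 polyamine genes 7 rose and 3 fell (median 0.31). Srm, spermidine synthase, read 809, 1014, 665 and 861 in tumors, against 253, 226, 112 and 153 in ganglia (log2 2.12), and Sat1 and Sat2, which acetylate polyamines, fell by 1.16 and 0.77. Odc1, the rate-limiting enzyme, rose by 0.57 and differed between pairs of ganglia, with log2 1.11 against ganglia 1 and 2 and 0.03 (adjusted p = 0.9) against 3 and 4.

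Glycolysis and hypoxia genes fell more often than they rose, 13 of 34 against 4 (median -0.45). Egln3, a prolyl hydroxylase induced in hypoxia, rose, with 1129, 870, 453 and 288 in tumors, against 178, 88.2, 13.2 and 22 in ganglia (log2 3.16, SE 0.50, adjusted p = 3.8e-05). Hif1a, the hypoxia factor, rose by 1.28 and Pkm, pyruvate kinase, by 1.56. Slc2a1, the glucose transporter GLUT1, fell, with 95.6, 118, 78.9 and 101 in tumors, against 511, 471, 282 and 267 in ganglia (log2 -1.76). Aldoc, an aldolase of neurons and glia, and Eno2, the neuronal enolase, fell by 3.22 and 3.16, and Bnip3, a mitophagy receptor induced in hypoxia, by 2.01. The other Aldoc probe set was at -0.32. Ldha (log2 0.24) and Hk2 (log2 0.20) did not pass. The hypoxia-induced genes of the list thus held changes of both signs.

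Mitochondrial respiration genes fell in 28 of 59 and rose in 1 (median -0.58). This count depended on the ganglia, with 47 lower and 1 higher against ganglia 1 and 2 and 21 lower and 9 higher against ganglia 3 and 4 (medians -0.90 and -0.03). Ndufb3, a complex I subunit, read 588, 692, 417 and 430 in tumors, against 1591, 3174, 948 and 1366 in ganglia (log2 -1.59). Sdhb, of complex II, read 1139, 1317, 796 and 959 in tumors, against 1984, 3462, 521 and 400 in ganglia (log2 -0.09, adjusted p = 0.9). Tumor values of Sdhb thus lay between those of the pairs of ganglia. Muscle and adipocyte sums were high in the same ganglia as Sdhb, and their part in it was not tested. In the sterol and fatty acid list 5 of 32 rose and 13 fell (median -0.46), with 4 higher against ganglia 1 and 2 and 9 against 3 and 4. The fatty acid enzymes Fasn, Acaca and Fads2 rose by 1.42, 1.04 and 1.95, while the sterol enzymes Fdft1 and Msmo1 fell by 1.44 and 1.95. Other probe sets were at 0.02 for Acaca, at -0.24, -0.06 and -1.27 for Fdft1 and at 0.36 for Msmo1. Fasn read 576, 678, 824 and 803 in tumors, against 394, 360, 156 and 190 in ganglia.

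In the list of serine and amino acid synthesis and its stress response 5 of 31 rose and 4 fell (median -0.06). Psat1, of serine synthesis, read 1477, 1413, 1144 and 1246 in tumors, against 401, 310, 417 and 323 in ganglia (log2 1.82, SE 0.15). Aldh18a1, of proline synthesis, rose by 2.27. Phgdh, the first enzyme of serine synthesis, did not pass (log2 -0.54, adjusted p = 0.39), nor did Atf4, the factor of this response (log2 0.06). Lysosome and autophagy genes rose in 6 of 45 and fell in 16 (median -0.36), with 4 higher against ganglia 1 and 2 and 10 against 3 and 4. Among them were the proteases Ctsz up by 2.62 and Ctsl down by 1.58.

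**Figure D4:**
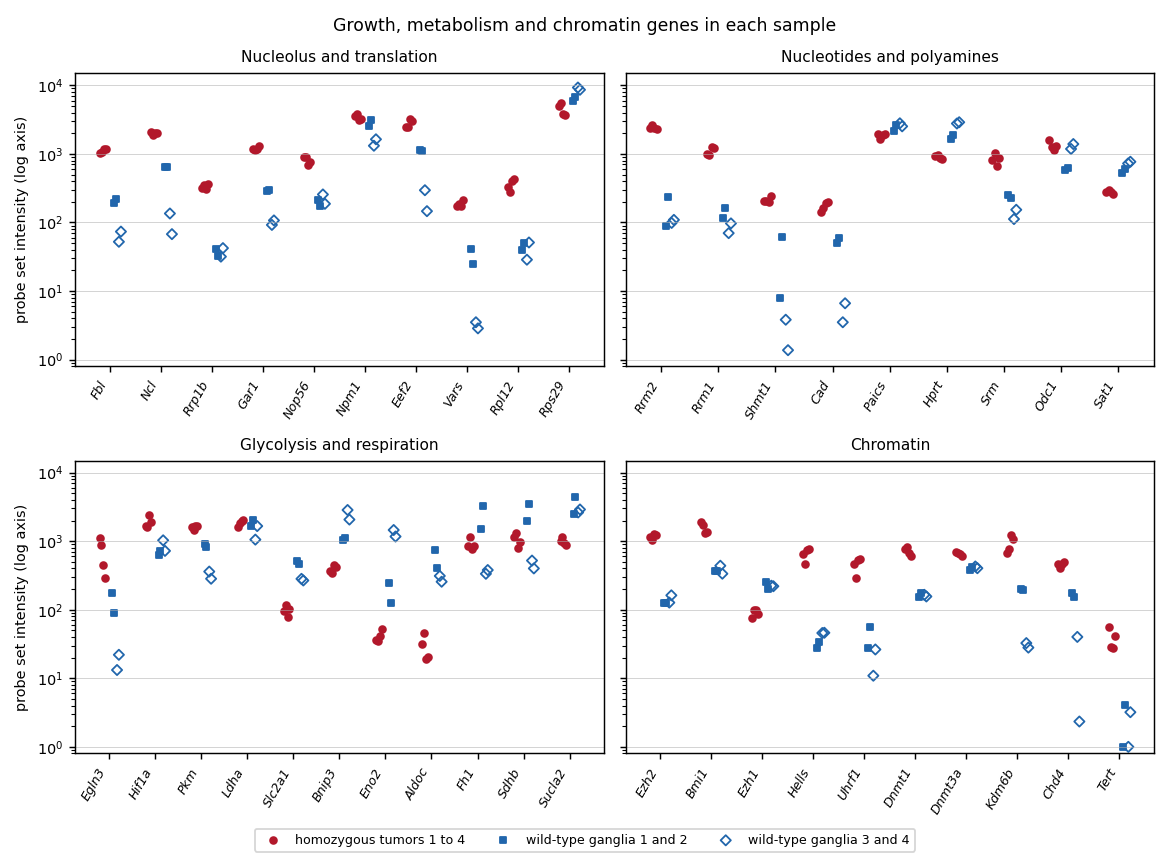
Probe set intensity (log axis) of genes of growth, metabolism and chromatin in each sample, with circles for homozygous tumors 1 to 4, squares for wild-type ganglia 1 and 2 and open diamonds for ganglia 3 and 4, and values under 1 drawn at 1. Fbl, Ncl, Rrp1b, Rrm2, Ezh2 and Hells are higher in every tumor, Slc2a1, Eno2, Aldoc and Hprt are lower in every tumor, and tumor values of Fh1 and Sdhb lie between the pairs of ganglia.

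Chromatin regulators were mostly higher. Among 47 deacetylases, remodelers and readers 27 rose and 0 fell (median 0.81), and among 16 DNA methylation enzymes 9 rose and 0 fell (median 0.67). Hells, a helicase needed for DNA methylation, read 651, 466, 749 and 762 in tumors, against 27.5, 34.1, 45.7 and 46.1 in ganglia (log2 3.62). Dnmt1, the maintenance methylase, rose by 2.03 and the de novo methylases Dnmt3a and Dnmt3b by 0.68 and 1.08. Tet1, Tet2 and Tet3, which oxidise methylcytosine, did not pass (log2 0.38, 0.44 and 0.17). Of 29 Polycomb genes 14 rose and 3 fell (median 0.60). Bmi1, of the first Polycomb complex, read 1881, 1735, 1297 and 1340 in tumors, against 367, 367, 438 and 335 in ganglia (log2 2.0, SE 0.19). Ezh2 and Ezh1, alternative methylases of the second complex, moved apart by the probe sets used, with Ezh2 at log2 2.98. Ezh1 read 76, 99.8, 98.7 and 87.4 in tumors, against 256, 200, 224 and 220 in ganglia (log2 -1.18, SE 0.18). Its other probe sets were at -0.45, -0.03 and -0.03, so the size of its fall depended on the probe set. Kdm6b, a demethylase of the mark that Ezh2 and Ezh1 place, rose by 3.22, with 680, 774, 1226 and 1057 in tumors, against 201, 196, 32.6 and 28 in ganglia. Other Kdm6b probe sets were at 0.45 and 1.05.

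Splicing factors rose in 36 of 63 and fell in 3 (median 0.68), with the core components Prpf8 and U2af1 up by 2.54 and 2.30. The 3 that fell were the tissue regulators Mbnl2 (log2 -2.15), Mbnl1 (log2 -0.55) and Celf4 (log2 -0.76). Other probe sets were at 0.24 and -0.26 for Mbnl1 and at 0.54 and -0.27 for Celf4, and 1 of 4 was above 0 for Mbnl2, at 0.11. Mbnl2 read 481, 490, 350 and 309 in tumors, against 1660, 1561, 2281 and 1918 in ganglia. Telomerase and shelterin genes rose in 10 of 15 and fell in 1 (median 1.27). Tert, the catalytic subunit, read 55.2, 28.4, 27.9 and 41.5 in tumors, against 0.933, 4.05, 0.658 and 3.2 in ganglia (log2 1.55, SE 0.22, adjusted p = 1.1e-05), and a second probe set was at 0.21. Proteasome genes rose in 4 of 32 (12.5%) and fell in 9 (28.1%), against 23.2% and 26.7% of all genes (list median -0.14). The count was 0 higher and 13 lower against ganglia 1 and 2 and 10 higher and 7 lower against ganglia 3 and 4. Chaperones rose in 9 of 33 and fell in 7 (median 0.10), near the shares of all genes (23.2% and 26.7%). The cytosolic co-chaperones Stip1 and Fkbp4 rose by 2.31 and 2.20, and the small heat shock proteins Hspb8 and Hspb1 fell by 3.64 and 2.03. Hspb8 read 28.5, 60.4, 32.3 and 39.5 in tumors, against 706, 431, 756 and 863 in ganglia.

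Notch pathway genes rose in 7 of 30 and fell in 10 (median -0.22), near the shares of all genes (23.2% and 26.7%). Dlk1, an imprinted membrane protein related to Notch ligands, read 1339, 1471, 1745 and 1709 in tumors, against 56.4, 65, 16.2 and 18.4 in ganglia (log2 4.96, SE 0.27, adjusted p = 2.3e-10). Dner, another non-canonical ligand, read 160, 188, 418 and 474 in tumors, against 2154, 1829, 7264 and 5285 in ganglia (log2 -3.58). The canonical ligand Dll1 and the nuclear effector Rbpj rose by 1.76 and 1.47, the target Hey2 fell by 2.28, and the target Hes1 and the receptors Notch1 and Notch3 did not pass. Of 27 oncofetal and imprinted genes 7 rose and 5 fell (median 0.21), also near the shares of all genes. Rian, a non-coding RNA of the same imprinted region as Dlk1, rose, with 1214, 1104, 1992 and 1940 in tumors, against 382, 197, 394 and 318 in ganglia (log2 2.22). Meg3, between them, did not pass by the brightest probe set (log2 0.43), while 9 of its other 10 probe sets were above 0. Igf2, a fetal growth factor, fell, with 38, 25.1, 36 and 20.9 in tumors, against 399, 586, 52 and 114 in ganglia (log2 -2.25, adjusted p = 0.0019), and was highest in ganglia 1 and 2. Lin28b (log2 0.30) and Hmga2 (log2 -0.42) did not pass.

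Midkine and its receptors split evenly, 8 of 20 higher and 8 lower (median -0.03). The ligand Mdk read 297, 268, 269 and 271 in tumors, against 85.7, 97.7, 54.1 and 43 in ganglia (log2 1.81, SE 0.23). The related ligand Ptn, pleiotrophin, read 164, 194, 196 and 163 in tumors, against 678, 549, 2297 and 1974 in ganglia (log2 -2.57, SE 0.38), so the 2 members of this ligand family changed in opposite directions. Ptprz1, a receptor of both, fell by 2.0, and Ncan, a proteoglycan of neural matrix, rose by 2.45.

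Wnt pathway genes rose in 10 of 41 and fell in 17 (median -0.39). The secreted inhibitor Dkk1 read 0.437, 3.5, 2.37 and 3.19 in tumors, against 121, 58.5, 219 and 292 in ganglia (log2 -3.17, SE 0.30), and Dkk3 and Sfrp5 fell by 2.81 and 1.88. The receptor genes Fzd3 and Lgr5 rose by 2.06 and 1.41. The other Fzd3 probe sets were at -0.27, 0.67, 0.37, 0.80 and -0.05, so its rise depended on the probe set. TGF-beta and BMP genes rose in 5 of 41 and fell in 18 (median -0.47). Fst, the activin antagonist follistatin, read 73.4, 56.4, 43.7 and 93.4 in tumors, against 1131, 717, 1321 and 1372 in ganglia (log2 -3.79), and the ligand Bmp5 fell by 2.77. The receptors Acvr2b and Tgfbr1 rose by 2.58 and 1.19, whereas the BMP receptor Acvr1, named after its values were seen, fell by 0.88. Other probe sets of Acvr2b were at 1.57 and -0.12. Hedgehog genes rose in 2 of 16 and fell in 6 (median -0.34), including Smo, the transducer, by 1.24 and Dhh, the ligand made by Schwann cells, by 1.30. Dhh was not past the threshold against ganglia 3 and 4 (adjusted p = 0.085). Hox genes rose in 5 of 20 and fell in 4 (median -0.03), near the shares of all genes (23.2% and 26.7%), with Hoxc4 up by 2.0. Immediate early genes rose in 5 of 27 (18.5%) and fell in 8 (29.6%), against 23.2% and 26.7% of all genes (list median -0.34). The count was 6 lower against ganglia 1 and 2 and 11 lower against 3 and 4. Fos read 62, 146, 61.4 and 75.5 in tumors, against 244, 154, 731 and 765 in ganglia (log2 -2.04), and did not pass against ganglia 1 and 2 (log2 -1.11, adjusted p = 0.066). Jun rose by 0.62, with an adjusted p of 0.063 against ganglia 1 and 2 alone.

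Ganglioside synthesis genes rose in 5 of 16 (31.2%) and fell in 3 (18.8%), against 23.2% and 26.7% of all genes (list median 0.12). St8sia1, the GD3 synthase, and B4galnt1, which makes GD2 from GD3, the surface lipid used as a neuroblastoma target, rose by 0.94 and 1.04. St8sia1 did not pass against ganglia 3 and 4 (adjusted p = 0.15), nor B4galnt1 against ganglia 1 and 2 (adjusted p = 0.1). St6galnac5, a sialyltransferase of other gangliosides, fell, with 38.6, 54, 40.2 and 48.5 in tumors, against 877, 544, 1742 and 2201 in ganglia (log2 -4.28, SE 0.33, adjusted p = 9.3e-09). St8sia2 and St8sia4, the polysialic acid synthases, moved apart, at log2 1.14 and -2.62. ABC transporter genes rose in 7 of 32 and fell in 10 (median -0.27), near the shares of all genes (23.2% and 26.7%). Abcb1a, a drug efflux pump, read 45.5, 46.3, 24.8 and 27.3 in tumors, against 376, 231, 426 and 371 in ganglia (log2 -2.81), Abcg2, another, fell by 2.52, and Abcf1, a translation factor of this family, rose by 1.82.

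Outside the lists, several genes differed by a wide margin between the tissues. Agtr2, the type 2 angiotensin receptor, read 2356, 3055, 2707 and 2536 in tumors, against 71.6, 121, 36.4 and 44.4 in ganglia. Sytl4, granuphilin, a granule docking protein, read 2905, 3352, 3598 and 3278 in tumors, against 147, 93.4, 119 and 181 in ganglia (log2 4.48), although its other probe set was at 0.32. Slc38a4, an amino acid transporter, read 967, 953, 1042 and 932 in tumors, against 37.8, 47.2, 31 and 36.3 in ganglia (log2 4.20, SE 0.18). The homeodomain factor Prox1 rose by 4.11, with 677, 566, 608 and 455 in tumors, against 18.8, 9.45, 22.3 and 23.1 in ganglia, and Cbln2, a synaptic organiser, rose by 4.07. In the other direction, Tm4sf4, a tetraspan membrane protein, read 30, 16.8, 16 and 13.9 in tumors, against 318, 193, 1576 and 1788 in ganglia (log2 -4.27). The odorant receptor Olfr78 read 15.2, 24.3, 20.1 and 18.9 in tumors, against 896, 790, 1151 and 961 in ganglia. Cntn3, an adhesion protein of neurons, Grm7, a metabotropic glutamate receptor, and Hpcal4, a neuronal calcium sensor, had log2 values of -4.22, -4.27 and -4.03. All genes of this paragraph passed with each pair of ganglia alone.

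The separate comparisons showed how far the results rested on which ganglia were used. Against ganglia 1 and 2 alone 3342 genes were higher (22.1%) and 4072 lower (26.9%), and against ganglia 3 and 4 alone 3976 were higher (26.3%) and 4421 lower (29.2%). These comparisons share the 4 tumors, and the pairs of ganglia also differ in the sex-linked genes. Of the 7560 changed genes, 4940 passed against both pairs in the same direction, 2438 higher and 2502 lower (65.3%). Of the 3939 that changed by more than 2-fold, 3485 did so, and of the 933 beyond 4-fold, 919. Opposite calls were made for 245 genes, 128 higher against ganglia 1 and 2 but lower against 3 and 4 and 117 the reverse. That 0 of these passed against all 4 ganglia follows largely from their selection, since that comparison averages differences of opposite sign.

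Genes with opposite calls have tumor means between those of the pairs of ganglia by their selection, and some with the widest calls are described. Cdh2, neural cadherin, read 669, 429, 873 and 752 in tumors, against 229, 140, 1674 and 1527 in ganglia, with log2 1.79 against the first pair and -1.26 against the second. Adm, the vasodilator adrenomedullin, read 504, 498, 1023 and 919 in tumors, against 298, 117, 1916 and 2357 in ganglia, with log2 1.80 and -1.59. In the reverse direction, Cidea, a lipid droplet protein of brown fat, read 176, 273, 284 and 271 in tumors, against 485, 2621, 42.9 and 53.2 in ganglia, with log2 -2.13 and 2.04. Fh1, fumarate hydratase of the mitochondrion, read 861, 1143, 779 and 847 in tumors, against 1499, 3202, 334 and 379 in ganglia, with log2 -1.27 and 1.30. Rbm25, a splicing factor, had 344, 263, 540 and 393 in tumors, against 105, 115, 996 and 1141 in ganglia, with log2 1.63 and -1.48. Adm, Cdh2 and Rbm25 were on average also higher in tumors 3 and 4 than in tumors 1 and 2, and the labels name no batch. When tumors 1 and 2 were set against ganglia 1 and 2, 2776 genes were higher and 3284 lower, and tumors 3 and 4 against ganglia 3 and 4 gave 3529 higher and 3820 lower, in pairings added after these data had been seen.

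**Figure D5:**
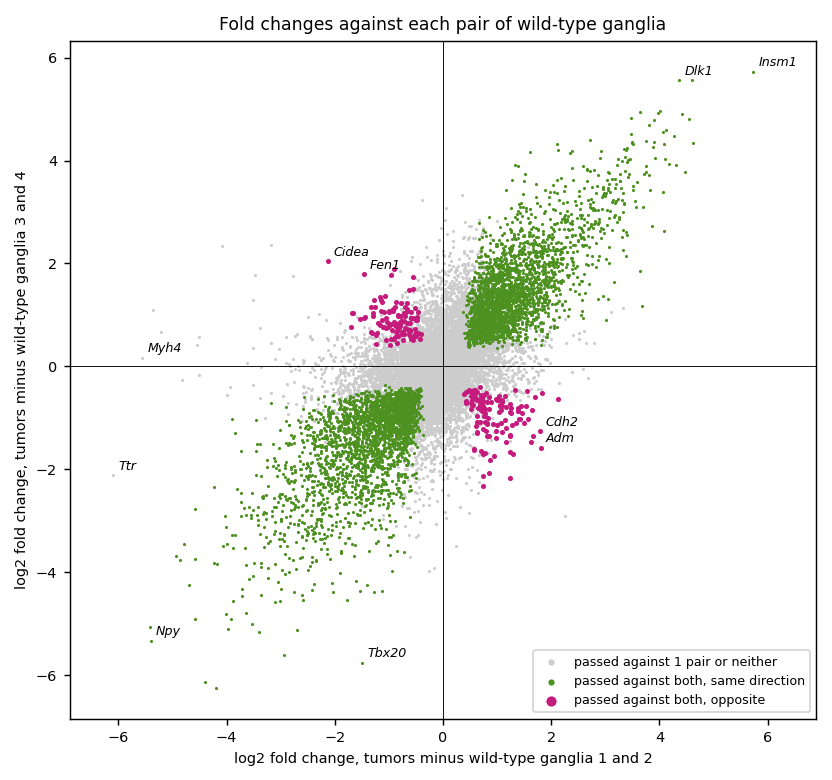
Log2 fold change of each of the 15139 tested genes, homozygous tumors minus wild-type ganglia 1 and 2 on the x axis and minus ganglia 3 and 4 on the y axis. Green points passed against both pairs in the same direction (4940), pink points in opposite directions (245) and grey points passed against 1 pair or neither. Insm1, Dlk1 and Npy lie along the diagonal, and Fen1, Cidea, Adm and Cdh2 in the opposite corners.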

How the data were processed

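The authors deposited linear probe set intensities of 20 Affymetrix Mouse Genome 430 2.0 arrays, per the labels' protocols from 40 ng of total RNA with 2 cycles of amplification. The deposited intensity values have a mean of 100 on each array once 2% is trimmed from each end. The software and the background correction are not given in the sources used here.

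From these values log2(intensity + 16) was computed without further normalization, since array medians spanned 0.33 on the log2 scale. Of 45101 probe sets, 64 controls were left out, 34945 had 1 gene symbol, 932 had several and 9160 none. The brightest probe set stood for each of 18193 genes, and 15139 above the 40th percentile on at least 2 arrays were tested. Values of other probe sets are given for part of the named genes only. limma 3.58.1 in R 4.3.3 fitted 7 group means to all 20 arrays, which left 13 residual degrees of freedom, with Benjamini-Hochberg adjustment over all tested genes and a threshold of 0.05. The number of arrays limits the precision. Separate animals are not stated for the samples, so p-values cover the spread between these arrays, which may be technical.

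The comparison and the 59 gene lists were chosen with earlier results of these data known. By rule, each list gives its key genes and the 3 highest and 3 lowest changed genes without overlap, with the 20 highest and 20 lowest genes overall and 8 genes each way with opposite calls against the pairs of ganglia. The text names part of these, and others are marked as chosen after values were seen. Scripts were tested on simulated data. Promoter windows are those of RefSeq for GRCm38.p6, whose gene table also updated 34741 probe set symbols.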

Additional observations from a re-analysis of the deposited data

Results flagged for a closer look

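One sample stood far from the other 3 of its group in 24 of 508 groups of 4 values of named genes, where chance flags about 1 in 20 groups. In tumor 1, Cidea read 176 against 271 to 284, Ina read 896 against 662 to 679 and Mdk read 297 against 268 to 271 in the other tumors. There, Mrc1 read 64.8 against 51.9 to 52.6 and Myc read 13.8 against 5.37 to 5.98 in the other tumors. In tumor 2, Acta1 read 437 against 12.5 to 23.2, Cacna1d read 227 against 190 to 196 and Cd68 read 158 against 99.6 to 107 in the other tumors. There, Kcnip4 read 12.9 against 5.2 to 5.99 and Pkm read 1458 against 1633 to 1663 in the other tumors. In tumor 3, Fzd3 read 1130 against 984 to 999, Slc18a2 read 1162 against 568 to 632 and Smo read 19.3 against 31.7 to 32.6 in the other tumors. There, Sox10 read 8.4 against 31.7 to 34.6 in the other tumors. In tumor 4, Meis2 read 1007 against 1540 to 1665 in the other tumors. In ganglion 1, Avil read 343 against 187 to 205, Chrnb4 read 638 against 400 to 427 and Slit1 read 5.98 against 1.28 to 1.77 in the other ganglia. In ganglion 2, Chgb read 1045 against 1317 to 1370, Kcnq3 read 374 against 857 to 934 and Nes read 64.4 against 41.4 to 44.5 in the other ganglia. In ganglion 3, Aurka read 1.49 against 23.1 to 27.6 and Vim read 3466 against 2506 to 2622 in the other ganglia. In ganglion 4, Ezh2 read 162 against 124 to 127 in the other ganglia.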

How the results depend on the processing

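The count of changed genes stayed within 1.5 times of 7560 under every setting but one. A limma test against a 2-fold change called 1360 genes, 671 higher and 689 lower. Leaving out 1 sample gave 6699 to 7686 changed genes, 3226 to 3600 higher and 3465 to 4101 lower. Fitting only the 8 arrays gave 6659, quantile normalization 7271 and median centring 7479. The share of higher calls moved most with quantile normalization, which called 3793 higher and 3478 lower. A fit with the replicate number as a block called 7461 genes. The numbers were not taken to pair samples, since the correlations of deviations were 0.067, 0.25, 0.21 and 0.14. The log2 beta-actin ratio was -1.38 and lay between -1.59 and -1.23 with 1 sample left out, where p was 0.0571 without tumor 1, 3 or 4. Directions changed for 15 named genes, counting only changes where the main fit or the altered fit passed, and the cause was not tested. Against ganglia 3 and 4 alone log2 values were -1.59 for Adm, -1.26 for Cdh2, -1.48 for Rbm25, 2.04 for Cidea and 1.15 for Sdhb. Against ganglia 1 and 2 alone they were -1.46 for Fen1, -1.27 for Fh1 and 0.51 for Nefl. Without ganglia 1 and 2 and tumor 2 they were -1.06 for Cdh2, -1.32 for Rbm25, 2.0 for Cidea and 1.04 for Sdhb. In the comparison of tumors 3 and 4 with ganglia 3 and 4, chosen after seeing the data, they were -0.97 for Cdh2, -1.18 for Rbm25, 2.20 for Cidea, -0.08 for Odc1 and -0.55 for Tet3. In that of tumors 1 and 2 with ganglia 1 and 2 they were -1.33 for Fen1 and -1.13 for Fh1. With quantile normalization Ddc was at 0.02 and Rps29 at 0.00. With the most variable probe set per gene Dnmt3a was at -0.27, H2-K1 at 0.17 and Pclo at -1.41. Dim genes near background on all arrays cannot show a fall.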
